A study of Mus musculus with 9 samples.

Results

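The brightest 0.999% of the 30534 circular RNA (circRNA) probes on a mouse liver array were followed across 3 groups of mice. They were chosen by their mean level on the 3 control arrays. By the kind of name they carry, they were 229 probes with a mmu_circ number, 59 named by a genome position, 9 with a Fan code and 8 with a mmu-circRNA number. A level here is the log2 of a probe's processed intensity minus the array's 75th percentile over all probes other than controls, so that 0 is the 75th percentile and each unit is a doubling. Spots that the scanner software flagged as outliers were left out. A level tells how bright a probe was. It does not rank the amounts of different circles, because probes bind their targets with unequal strength.

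Circular RNAs arise when the splicing machinery joins the end of an exon back to a start that lies upstream of it, which closes the RNA into a ring. With no free ends, circles withstand exonucleases and tend to last longer in the cell than the linear transcripts of the same gene. The liver is rich in RNA from a small set of strongly transcribed genes, many of them for secreted proteins and for metabolism. Metformin is a biguanide that lowers blood glucose and is given for diabetes, and the liver is among its main sites of action.

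All mice were C57BL/6J males, an inbred strain, and were 20 weeks old. From the age of 3 weeks, metformin mice were fed for 17 weeks on food with 45% of the energy as fat, and metformin at 3 mg/kg/day was given into the stomach over the last 5 weeks. High fat diet mice ate the same food and got saline the same way, while control mice ate normal chow and no gavage is listed for them. In any difference from control, the effects of food and of gavage cannot be told apart. There were 3 arrays for each group, with the livers of 4 mice pooled on each, so the spread between arrays is that between pools. RNA was digested with RNase R, an enzyme that removes linear RNA, before labelling with Cy3. In such bulk RNA, fewer cells of a type and less RNA per cell cannot be told apart. The files pair no probe with a host gene, so neither host genes nor liver marker genes were set against these probes, and probe sequences were not analysed here.

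High fat diet replicate 2 and metformin replicate 3 stood apart from the other arrays. High fat diet replicate 2 had the highest 75th percentile intensity, 1053, against 723 to 880 on the other 8 arrays. The share of probes well above background was lowest on metformin replicate 3 (69.4%) and high fat diet replicate 2 (71.8%), and lay between 77.0% and 84.3% on the other arrays. Metformin replicate 3 was also the only array on its slide, and the other 8 shared a slide in 2 columns. High fat diet replicate 1 shared the first column with the 3 controls, and the second held high fat diet replicates 2 and 3 and metformin replicates 1 and 2.

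The chosen probes ran from 4.39 to 8.84 in control mean, with a median of 5.09, while the median over all circRNA probes was -1.28. In linear terms that was 21.0 to 457 times the 75th percentile. Most lay near the lower end. The control mean was over 5 for 164 of the probes, over 6 for 74, over 7 for 39 and over 8 for 15. Processed intensities spanned 10560 to 373104, and 0 of the chosen spots were saturated. All 2619 unflagged values were well above background. Outlier flags removed 126 of the 2745 possible values (4.59%, against 0.963% for the other circRNA probes), and 248 of the probes had a value on all 9 arrays. Among them, 15 were ranked on 1 control value and 12 on 2. At the edge of the choice, the last probe inside, chr10:126881332-126909056 (mouse build mm9, positions as in the probe names), averaged 4.39 in controls. The 2 before it, chr3:97439434-97449843 and mmu_circ_0008937, also averaged 4.39. Just outside, mmu_circ_0008210 averaged 4.39, chr1:163171767-163177544 averaged 4.38 and mmu_circ_0016078 averaged 4.37, so levels ran on without a step across the border.

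The same probes stayed bright on the arrays that had no part in choosing them. When a top of the same size was taken from each group, 285 of the probes were also in that of the metformin arrays and 285 in that of the high fat diet arrays, and 277 were in the top of all 3 groups. The lowest rank that a chosen probe took was 452 on the metformin arrays and 423 on the high fat diet arrays. Together the bright probes held 32.0% ± 2.56 of the summed circRNA intensity on metformin arrays, 31.4% ± 1.51 on high fat diet arrays and 34.5% ± 0.997 on control arrays (SD, n = 3 each). From 276 to 304 of the bright probes had an unflagged value on a given array. How far this affects the shares was not tested. The 12 brightest alone held 5.97% ± 0.581 on metformin arrays, 6.05% ± 0.529 on high fat diet arrays and 7.52% ± 0.412 on control arrays (SD, n = 3 each). The values with metformin or high fat diet did not reach those of control for the 12 brightest, but the control arrays chose these probes, and no test was made of that.

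The 12 brightest all carried names of the kind mmu_circ with a number. The top of the list was mmu_circ_0015495, at 7.29, 7.60 and 8.11 on the metformin arrays, 7.76, 8.0 and 8.38 on the high fat diet arrays and 8.80, 8.80 and 8.91 on the control arrays. Next came mmu_circ_0015494, at 7.31, 7.41 and 7.77 with metformin, 7.36, 7.92 and 7.94 on the high fat diet and 8.73, 8.74 and 8.69 in controls. For both, every metformin array and every high fat diet array lay below every control array, while metformin and high fat diet arrays overlapped. The pattern was shared by mmu_circ_0010286, with 7.17, 7.27 and 7.53 on metformin arrays, 7.22, 7.01 and 7.80 on high fat diet arrays and 8.48, 8.02 and 8.22 on control arrays. It was also that of mmu_circ_0015496, with 6.95, 7.05 and 7.19 on metformin arrays, 7.38, 7.17 and 7.53 on high fat diet arrays and 8.59, 8.12 and 7.98 on control arrays. Metformin and high fat diet arrays overlapped narrowly for mmu_circ_0015496.

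For the other 8 of the 12 brightest, metformin arrays overlapped both the high fat diet and the control arrays. mmu_circ_0004203 averaged 8.55 ± 0.29 with metformin, 8.42 ± 0.21 on the high fat diet and 8.69 ± 0.05 in controls (SD, n = 3 each). mmu_circ_0009091 averaged 8.56 ± 0.09 with metformin, 8.43 ± 0.24 on the high fat diet and 8.63 ± 0.05 in controls. For mmu_circ_0014067 the averages were 8.50 ± 0.13 with metformin, 8.43 ± 0.26 on the high fat diet and 8.59 ± 0.14 in controls. For mmu_circ_0004203 every high fat diet array, from 8.18 to 8.59, lay below every control array, from 8.63 to 8.73. For mmu_circ_0009091 and mmu_circ_0014067 high fat diet and control arrays overlapped. mmu_circ_0014873 averaged 8.22 ± 0.45 with metformin, 8.30 ± 0.20 on the high fat diet and 8.48 ± 0.20 in controls, and its metformin arrays spread from 7.75 to 8.64. mmu_circ_0005713 averaged 8.43 ± 0.15 with metformin, 8.22 ± 0.14 on the high fat diet and 8.34 ± 0.17 in controls. For mmu_circ_0008792 the averages were 8.27 ± 0.20 with metformin, 8.25 ± 0.15 on the high fat diet and 8.32 ± 0.20 in controls, a close match between the groups. mmu_circ_0006672 averaged 7.98 ± 0.39 with metformin, 8.0 ± 0.13 on the high fat diet and 8.32 ± 0.27 in controls. The last, mmu_circ_0006409, averaged 7.97 ± 0.27 with metformin, 7.80 ± 0.36 on the high fat diet and 8.15 ± 0.12 in controls.

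**Figure D1:**
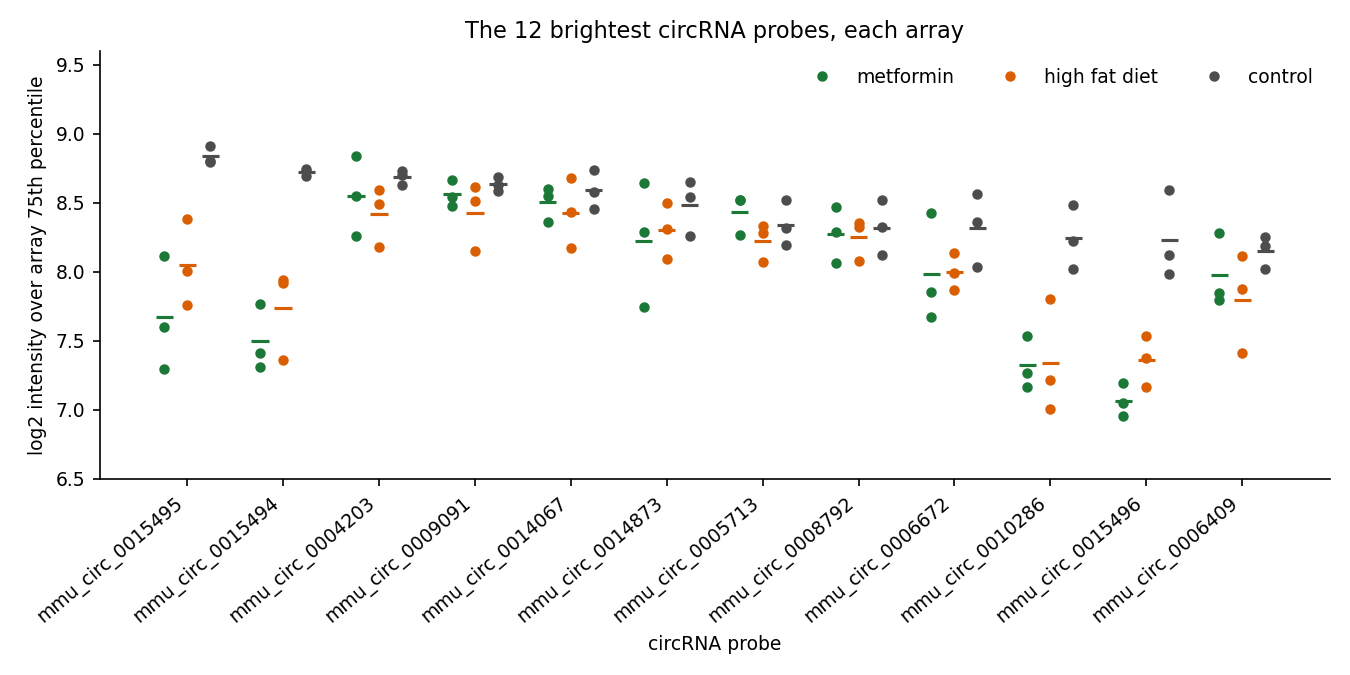
Levels of the 12 brightest circRNA probes (log2 intensity over the array 75th percentile) on each array, with points for arrays and short lines for group means, in order of control mean. For mmu_circ_0015495, mmu_circ_0015494, mmu_circ_0010286 and mmu_circ_0015496 the metformin and high fat diet points lie below the control points, and for mmu_circ_0004203 the high fat diet points alone lie below them. For the other 7 the groups overlap.

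The kind of name was unevenly spread. Of 13892 circRNA probes with a mmu_circ number, 229 were among the brightest (1.65%). The shares were 8 of 524 for mmu-circRNA numbers (1.53%), 9 of 2075 for names with Fan codes (0.434%) and 59 of 14043 for names made of a position (0.420%). Many of the numbered probes were neighbours in number. Of the 229, 87 (38.0%) fell into 32 runs of consecutive numbers. The longest run held 7 probes, mmu_circ_0000788 to mmu_circ_0000794, with control means between 6.42 and 8.10. The sources used here do not say what adjoining numbers share. Probes of a run may read the same or overlapping RNA, so they cannot be taken as independent.

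The position-named probes allow circles to be placed on the genome. The 59 lay on 16 chromosomes in 58 loci, where a locus joins position-named circles whose spans overlap by at least 1 base. Probes with other kinds of name carry no position here and may lie in the same loci. Spans were short: the median was 3177 bases (106 to 27724), against 8125.5 for the other position-named probes, and 17 of the 59 (28.8%) spanned under 1000 bases, against 9.68% of the others, a difference that was not tested. The brightest was chr11:23263791-23264512, a span of 721 bases, at 6.69, 6.68 and 6.92 on metformin arrays, 6.70, 6.40 and 6.62 on high fat diet arrays and 6.72, 6.84 and 6.84 on control arrays. Its metformin arrays overlapped both other groups, while every high fat diet array lay below every control array. Its locus held 9 other position-named probes, whose control means ran from -4.21 to -1.06.

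Next in brightness was chr7:20282882-20283005 (span 123 bases), with a control mean of 6.49 over 2 unflagged arrays. It was followed by chr12:8735662-8735955 (293 bases) at 6.27, chr5:141154028-141159493 (5465 bases) at 6.13, and chr10:79796248-79796879 (631 bases) at 6.03. The last 3 of the 8 brightest were chr12:54111461-54126828 (15367 bases) at 5.96, chr17:57352036-57352184 (148 bases) at 5.95 and chr15:93250715-93258905 (8190 bases) at 5.93. None of these 8 passed the test between metformin and high fat diet described below.

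In 33 of the 58 loci (56.9%, against 66.1% of all loci) the bright probe was the sole position-named probe. The other 25 loci held 84 further position-named probes, of which 26 shared an end with the bright circle. The median gap in control mean to the brightest other probe was 2.56 log2 units. The direction of the gap is fixed by the choice of the top of the array. At chr5:141141299-141159493, the member at 6.13 stood beside 4 other probes that reached 0.12 at most. At chr15:93250715-93272143, the other probe shared an end with the member at 5.93 and read -1.50. Some loci had smaller gaps, such as chr15:79362102-79374286, where the member averaged 4.97 and the brightest of 4 others 4.11.

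A pair of chosen probes shared a locus at chr2:163460171-163465063. The circle chr2:163462547-163465063 had a level of 4.59 on the sole unflagged control array, and chr2:163460171-163462740 averaged 4.48 over 2 control arrays. The third position-named probe there spans the whole locus, averaged 4.33 ± 0.09 in controls (SD, n = 3) and ranked 321, just outside the choice. On chromosome 17, 3 chosen circles lay in a row without overlap, chr17:57346757-57351158, chr17:57352036-57352184 and chr17:57357988-57358094, with gaps of 878 and 5804 bases. Their control means were 4.47 (n = 2 unflagged arrays), 5.95 ± 0.19 and 5.81 ± 0.25 (SD, n = 3 each). On chromosome 12, chr12:8716128-8720743 and chr12:8735662-8735955 lay 14919 bases apart.

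Each circRNA probe had a partner probe, named like it but ending in _neg, and the sources used here do not say what the partners were built to bind. Bright circRNA probes mostly had bright partners. The partners had a median level of 4.43, against -2.50 over all partners, and 205 of them (67.2%) were in a top of the same size taken from the partners. The median log2 ratio of circRNA probe to partner was 0.63 for the bright probes, which is 1.55-fold, and 0.75 for the other circRNA probes. The ratio lay within 1 log2 unit of 0 for 201 of the bright probes. In 233 the circRNA probe was the brighter on all arrays measured, and in 23 the partner was. By the mean over arrays, the partner was as bright or brighter for 38 (12.5%), against 22.1% of the other circRNA probes.

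A smaller set stood clear of its partners. The measured log2 ratio was over 4 for 23 of the bright probes (7.54%, against 5.32% of the others). The partner was well above background on every array measured for 19 of the 23, on some arrays for 3 and on none for 1. That 1 was mmu_circ_0014718, whose own levels were 4.91, 4.77 and 5.37 on metformin arrays, 4.77, 4.82 and 5.06 on high fat diet arrays and 5.06, 5.09 and 4.87 on control arrays. The groups overlapped for this probe. A partner not well above background gives only a bound, taken here against the higher, on each array, of the partner's own level and that of the dimmest probe well above background. By that bound mmu_circ_0014718 was at least 844-fold brighter than its partner.

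The partner of mmu_circ_0011327 was well above background on 3 of 9 arrays, that of mmu_circ_0011648 on 6 and that of mmu_circ_0003010 on 7. Bounded in the same way, mmu_circ_0011327 was at least 821-fold, mmu_circ_0011648 at least 1032-fold and mmu_circ_0003010 at least 535-fold brighter than its partner. No order is read among these 4. The partner of mmu_circ_0006449 was well above background on all 9 arrays, with a log2 ratio of 8.82.

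At the other end, the partner of mmu_circ_0010261 outshone it by 2.58 log2 units. mmu_circ_0010261 itself averaged 5.12 ± 0.08 with metformin, 4.96 ± 0.24 on the high fat diet and 5.21 ± 0.14 in controls (SD, n = 3 each), while its partner averaged 7.78 with metformin, 7.58 on the high fat diet and 7.66 in controls. The log2 ratio was -1.51 for mmu_circ_0006755, -1.34 for mmu_circ_0004626, -0.74 for Fan_16_148_1145 and -0.64 for chr11:120547958-120550655. In the authors' deposited table, whose values follow the circRNA intensity minus that of the partner, 21 of the bright probes stood at the floor on all arrays, 229 stood above it on all arrays, and 173 were in a top of the same size on the control arrays.

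**Figure D2:**
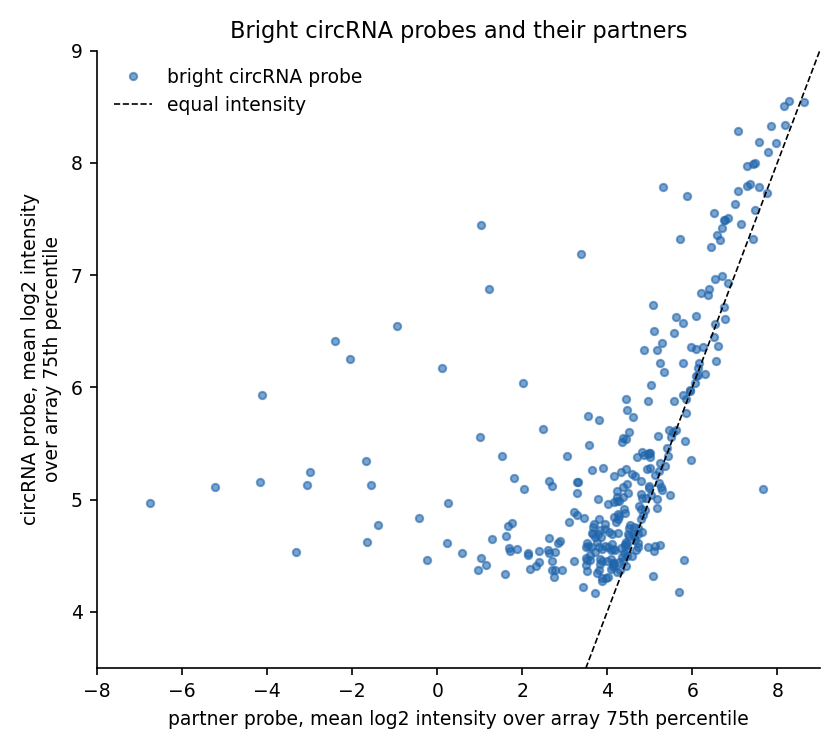
Mean level over all arrays of each bright circRNA probe (vertical axis) against that of its partner probe (horizontal axis), both as log2 intensity over the array 75th percentile, with a dashed line of equal intensity. Most points follow the line at partner levels above 4, and a small group keeps a bright circRNA probe beside a partner below 0, where the lowest partners are not well above background on all arrays.

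The comparison of metformin with high fat diet asks what the drug changed in livers on the same food. The control arrays that chose the probes do not enter the difference, but they enter the estimate of spread, since the 3 groups were fitted together. Fitted without them, the comparison also gave 0 calls among the bright probes. No bright circRNA passed the test. With limma's moderated test and Benjamini-Hochberg adjustment over all tested circRNAs, 0 of 303 bright probes were called at an adjusted p under 0.05, and over all 25828 tested probes 0% were called. The smallest adjusted p among the bright probes was 0.969 (limma). At an unadjusted p under 0.05, 7 were higher (2.31%, against 2.32% of all tested) and 0 were lower (against 1.58%).

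The bright probes as a body lay slightly higher with metformin. The member median was 5.05, 5.01 and 5.16 on the metformin arrays and 5.00, 4.89 and 4.93 on the high fat diet arrays, so the groups narrowly missed overlapping. Each median is over the bright probes unflagged on that array, from 276 to 304 of them, so the sets differ between arrays. Whether the gap depends on which spots were flagged was not tested. The median log2 difference, metformin minus high fat diet, was 0.11 over the 303 and 0.03 over all tested circRNAs. The difference was above 0 for 246 of the 303 (81.2%, against 56.4% of all tested). Every metformin array lay above every high fat diet array for 23 of 254 bright probes measured on all 6 arrays (9.06%, against 5.07% of all tested), and below for 1 (0.394%, against 2.67%). The size of this shift varied with the arrays included and with the scaling. Without metformin replicate 3 the median difference was 0.054, and the share above on every array was 11.7%, against 12.0% of all tested. After normexp background correction and quantile normalisation the median difference was 0.032, and with outlier spots kept it was 0.071. Within the second column of the shared slide, with 2 arrays of each group and also without metformin replicate 3, it was 0.10.

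**Figure D3:**
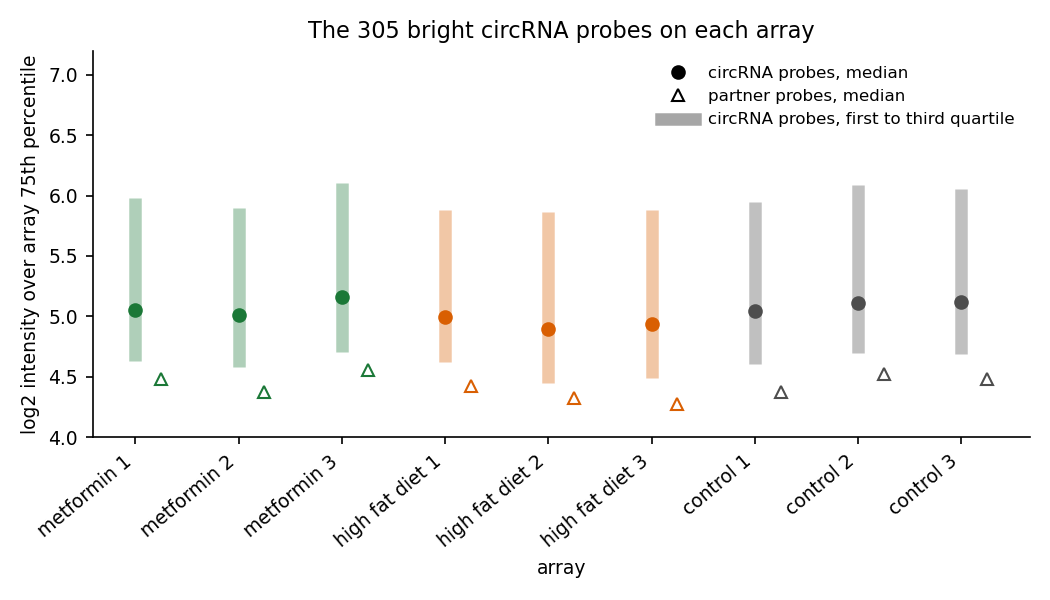
Median level of the bright circRNA probes on each array (filled points, log2 intensity over the array 75th percentile), with bars over the middle 50% of the probes and open triangles for the median of their partners. The medians of the metformin arrays lie between 5.01 and 5.16, those of the high fat diet arrays between 4.89 and 5.00, and those of the control arrays between 5.05 and 5.12. The partner medians lie between 4.38 and 4.55 on metformin arrays, 4.27 and 4.42 on high fat diet arrays, and 4.37 and 4.52 on control arrays.

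The partners also lay slightly higher with metformin, though their array medians overlapped between metformin and high fat diet. Their median log2 difference, metformin minus high fat diet, was 0.12, against 0.068 over all partners tested. In direction, 227 of 297 bright probes moved with their partner, and no share over all pairs is set beside that. Every metformin array lay above every high fat diet array for 25 of 250 partners (10%, against 7.03% of all partners), and below for 0 (against 1.88%). Of 299 partners tested with limma, 0 were called, as were 0% of all partners tested. On the log2 ratio of circRNA probe to partner the median difference was -0.0026, and 0 of 293 bright pairs were called by limma, as were 0% of all pairs. At an unadjusted p under 0.05 the ratio was higher for 2 pairs (0.683%, against 1.71% of all pairs) and lower for 4 (1.37%, against 3.19%).

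The bright probes with the smallest unadjusted p for a higher level with metformin did not pass the adjusted test, and the first of them rests on few spots. mmu_circ_0015253 had 1 unflagged metformin array, at 5.36, 1 unflagged high fat diet array, at 4.29, and 2 unflagged control arrays, at 4.73 and 4.42, which alone gave its own residual spread. At chr8:88033078-88036255 the levels were 4.70, 4.65 and 4.66 on metformin arrays, 4.13 and 4.25 on the 2 unflagged high fat diet arrays, and 4.45, 4.64 and 4.75 on control arrays. The metformin arrays lay above the high fat diet arrays and among the controls, with a log2 difference of 0.48 ± 0.15 (SE; limma adjusted p = 0.969). mmu_circ_0000792 had 6.75, 6.75 and 7.28 on metformin arrays, 6.14 and 6.53 on the 2 unflagged high fat diet arrays, and 6.76, 6.80 and 6.89 on control arrays. Here too the metformin arrays lay above the high fat diet arrays, with a log2 difference of 0.59 ± 0.20 (SE; limma adjusted p = 0.969).

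mmu_circ_0000533 was measured on all 9 arrays, at 5.18, 5.26 and 5.32 with metformin, 4.92, 4.79 and 5.06 on the high fat diet and 5.28, 5.09 and 5.19 in controls. Its metformin arrays lay above all high fat diet arrays and overlapped the controls, with a log2 difference of 0.33 ± 0.13 (SE; limma adjusted p = 0.969). mmu_circ_0008939 had 4.54, 4.45 and 4.10 on metformin arrays, 3.95, 3.76 and 4.18 on high fat diet arrays and 4.63, 4.49 and 4.39 on control arrays. Metformin and high fat diet arrays overlapped, and its partner differed by 0.44, as much as the probe itself (0.40).

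Of the bright probes lower with metformin, none had an unadjusted p under 0.05. mmu_circ_0011335 had 4.60, 4.14 and 4.13 on metformin arrays, 4.98, 4.79 and 4.28 on high fat diet arrays and 4.23, 4.72 and 4.49 on control arrays. The 3 groups overlapped, and the log2 difference between metformin and high fat diet was -0.39 ± 0.21 (SE; limma adjusted p = 0.969). The others with the smallest p were mmu_circ_0015495 at -0.38 ± 0.21, mmu_circ_0015496 at -0.30 ± 0.17, mmu_circ_0000793 at -0.28 ± 0.20 and mmu_circ_0015494 at -0.24 ± 0.18 (SE; limma adjusted p = 0.969 for each).

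Differences from control are given as a description, because the control arrays chose the probes. Levels were lower than control for 189 bright probes with metformin (62.4% of the 303 with a difference, against 56.7% of all tested). On the high fat diet they were lower for 271 (88.9% of all the bright probes, against 62.0% of all tested). The median log2 difference was -0.047 for metformin minus control, and -0.028 over all tested circRNAs. It was -0.15 for high fat diet minus control, and -0.056 over all tested circRNAs. Both varied with the processing and with the array layout. No metformin array shared a column of a slide with the controls, so metformin minus control could not be read within a column. After normexp and quantile normalisation the median was 0.0155 for metformin minus control and -0.00917 for high fat diet minus control. With the array column as a covariate it was 0.0406 for metformin minus control and -0.0533 for high fat diet minus control. The controls shared their column of the slide only with high fat diet replicate 1, so few arrays link that column to the others. Nothing is read from these adjusted medians. Within the first column of the shared slide, high fat diet replicate 1 against the control mean gave a median of -0.067 over 276 bright probes. Over all tested circRNAs the median was 0.0027. Of the 276, 179 were lower, and no share over all tested is set beside that count.

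Every metformin array lay below every control array for 39 of 262 bright probes (14.9%; 6.88% of all tested) and above for 6 (2.29%; 4.76% of all tested). Every high fat diet array lay below every control array for 64 of 260 (24.6%; 9% of all tested) and above for 0 (3.58% of all tested). Nothing is read from these shares. The limma fit called 0 bright probes in either comparison at an adjusted p under 0.05, and 0% of all tested in each. Up to 3 bright probes were called under other settings, which are given with the alternatives. At an unadjusted p under 0.05, 15 of 303 bright probes were lower (4.95%; 3.43% of all tested) and 1 higher (0.33%; 1.64% of all tested) for metformin minus control. For high fat diet minus control, 35 bright probes were lower, a larger share than the 5.18% of all tested, and 0 were higher, against 2.07%. The control arrays chose the probes, so nothing is read from this share either.

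**Figure D4:**
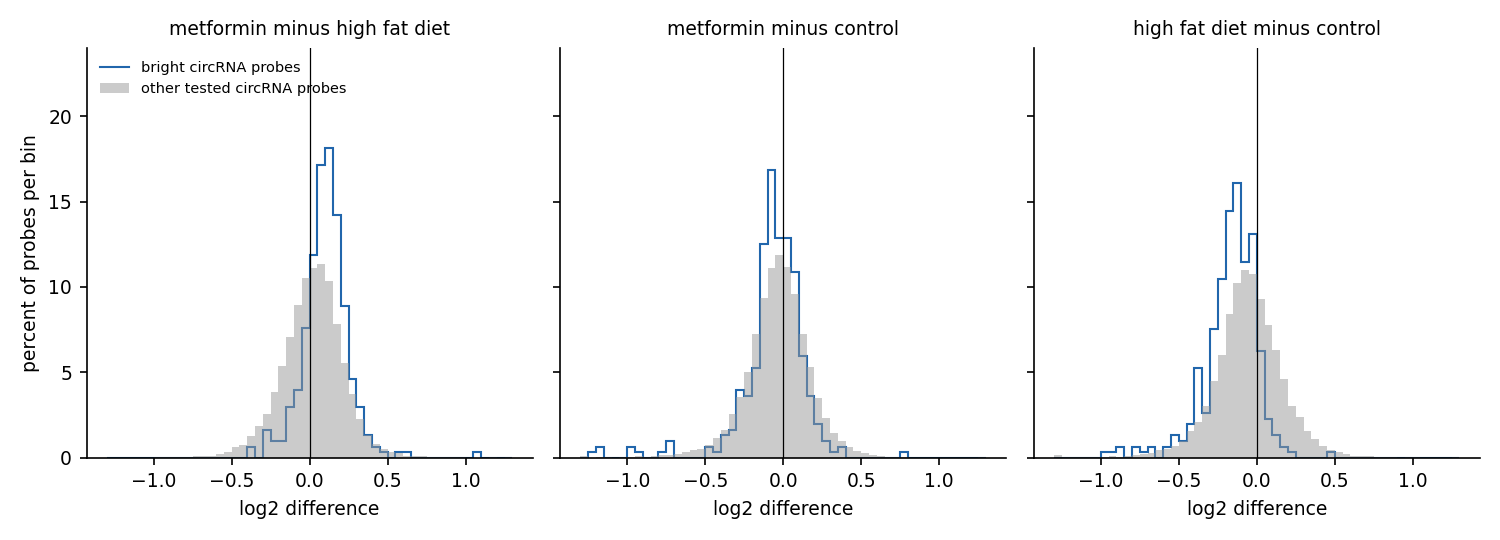
Distribution of log2 differences between groups for the bright circRNA probes (blue line) and the other tested circRNA probes (grey), as the percent of probes in bins of 0.05, for metformin minus high fat diet, metformin minus control and high fat diet minus control. The bright probes centre at 0.11 in the first panel and at -0.15 in the last, and their tail below -0.5 appears only in the panels with control, whose arrays chose the probes.

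The tail of that distribution held a few of the brightest probes of all. With metformin, 10 bright probes lay more than 0.5 log2 units below control (3.3%; 2.44% of all tested), a set picked out after the values were seen. They ranked between 1 and 50 in control mean and included numbered neighbours: mmu_circ_0015494, mmu_circ_0015495 and mmu_circ_0015496, then mmu_circ_0010285, mmu_circ_0010286 and mmu_circ_0010287, and mmu_circ_0016041 and mmu_circ_0016042. The other two were mmu_circ_0015506 and mmu_circ_0015544. Their log2 differences from control ran from -1.22 to -0.70 with metformin and from -0.98 to -0.56 on the high fat diet. Every metformin array lay below every control array for all 10 (6.88% of all tested). Every high fat diet array did so for 8 of the 10 (9% of all tested). The 10 were picked by their distance from control, so nothing is read from these counts.

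The steepest difference was that of mmu_circ_0015494, whose array values are given above: -1.22 ± 0.18 for metformin minus control and -0.98 ± 0.18 for high fat diet minus control (SE). mmu_circ_0010285 had 6.48, 6.53 and 6.74 on metformin arrays, 6.49, 6.35 and 6.92 on high fat diet arrays and 7.39, 7.34 and 7.37 on control arrays. Its control arrays were tightly grouped and lay above all the others. mmu_circ_0016042 had 6.75, 7.03 and 7.04 on metformin arrays, 6.93, 6.78 and 7.52 on high fat diet arrays and 8.50, 7.53 and 7.75 on control arrays. Control replicate 1 was the highest there, and it was also the highest control for mmu_circ_0015496 and, at 8.54 against 7.88 and 7.78, for mmu_circ_0015544.

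For 9 of these 10 the partners were lower than control too, by -1.09 to -0.56 with metformin and by -0.92 to -0.61 on the high fat diet. For these 9, the log2 ratio to the partner differed from control by -0.44 to 0.16 with metformin and by -0.24 to 0.22 on the high fat diet. The share of the partner's signal in the difference was not tested. The last, mmu_circ_0016041, had a log2 ratio of 5.98 to its partner. Its own levels were 5.72, 5.91 and 6.10 on metformin arrays, 5.69, 5.74 and 6.48 on high fat diet arrays and 6.75, 6.52 and 6.63 on control arrays. Its partner differed from control by -0.024 ± 0.98 with metformin and 0.32 ± 0.98 on the high fat diet (SE), an error too wide to tell whether the partner moved.

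**Figure D5:**
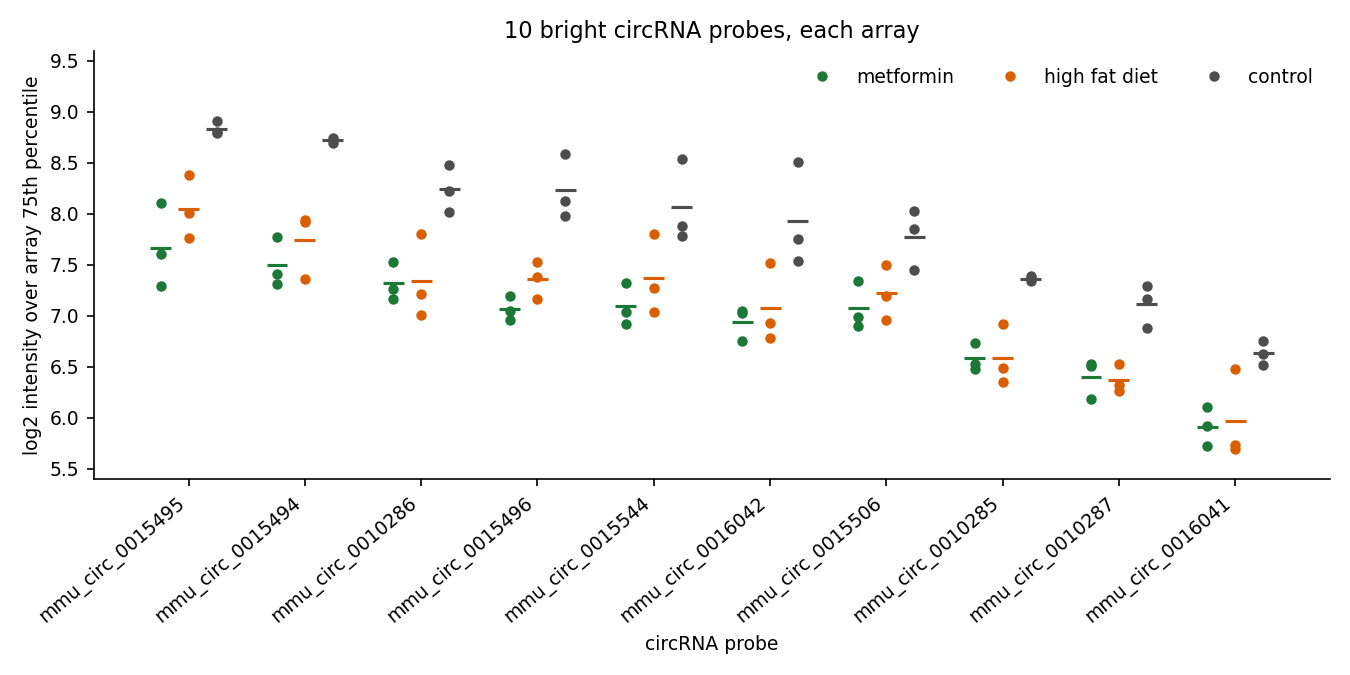
Levels (log2 intensity over the array 75th percentile) on each array of the 10 bright circRNA probes that lay more than 0.5 log2 units below control with metformin, with points for arrays and short lines for group means. The metformin and high fat diet points overlap for most probes, and the metformin points lie below the control points for all 10, a set picked after its values were seen.

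Levels were above control for 114 bright probes with metformin and for 34 on the high fat diet. For high fat diet minus control the largest differences were 0.48 for mmu_circ_0014065, 0.21 for mmu_circ_0011335, 0.18 for chr17:57352036-57352184, 0.15 for Fan_16_148_1470 and 0.12 for mmu_circ_0014064. mmu_circ_0014065 had 7.51 and 8.0 on 2 unflagged metformin arrays, 8.29, 7.54 and 7.78 on high fat diet arrays and 7.40 on the sole unflagged control array. For metformin minus control the largest were 0.78 for mmu_circ_0015253, 0.37 for mmu_circ_0005430, 0.36 for mmu_circ_0014065, 0.32 for mmu_circ_0013071 and 0.30 for mmu_circ_0014064. Each of these 5 lacked at least 1 array through outlier flags, and mmu_circ_0005430 had 1 unflagged array per group.

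Within a group, the median SD over the metformin and high fat diet arrays was 0.180 for the bright probes and 0.207 for the other tested circRNAs. The 3 widest spreads were on the high fat diet arrays. chr5:90901031-90901710 had 5.12 and 5.22 on 2 unflagged metformin arrays, 4.64, 6.26 and 4.89 on high fat diet arrays and 5.17, 5.61 and 4.89 on control arrays. High fat diet replicate 2 was the highest there, and it was also the highest high fat diet array for mmu_circ_0001549, at 5.81 against 4.12 and 4.71, and for mmu_circ_0014068, at 6.30 against 5.11.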

How the data were processed

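RNA from 9 liver pools (3 arrays a group) was read on 1-colour Agilent circRNA arrays. Per the file headers, the deposited processed intensity is background-subtracted and detrended, from Agilent Feature Extraction 11.5.1.1 with a grid on mm9, and the submitters' processing notes name version 10.7. The authors also deposited log2 values per circRNA. Their values follow the circRNA minus partner intensity, with equal medians and a floor of -3.32, and the sources used here do not say how they were made.

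Processed intensities were brought to log2, less each array's 75th percentile over non-control probes. Outlier-flagged spots were left out. The bright circRNAs are the top 305 by control mean. A circRNA was tested if every array of 1 group or more read it well above background (25864 circRNAs, all 305 bright ones among them; 303 had values in metformin and high fat diet arrays). The 3 groups were fitted together in limma 3.58.1 (R 4.3.3, lmFit and eBayes) and p-values were adjusted over all tested circRNAs (Benjamini-Hochberg, threshold 0.05). The fit was tested on simulated data. The number of arrays limits the precision, and p-values measure the spread between pools. Replicate numbers were taken as names, since no label ties same-numbered arrays. The correlation of same-numbered arrays ran from -0.141 to 0.193, and that of differently numbered arrays from -0.259 to 0.275. Between metformin and high fat diet it was 0.0659, 0.0867 and 0.174 for same-numbered arrays, and -0.216 to 0.116 for the others.

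Named circRNAs were the 12 brightest, the 5 with the smallest p in each direction between metformin and high fat diet, the 5 largest differences in each direction from control, the 5 highest and 5 lowest ratios to the partner, 3 on either side of rank 305, the 8 brightest named by position, loci with over 1 bright probe, and the 3 largest SDs. The members and lists were chosen with earlier results of these data known. The planned normexp setting used the mean spot signal, and the deposited median signal stood in for it (offset 50). Host genes were not assigned, because the files pair none with probes, and positions are as the probe names give them.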

Additional observations from a re-analysis of the deposited data

How the results depend on the processing

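Between metformin and high fat diet, 0 bright circRNAs were called in limma under each alternative run: other background correction and scaling, no filter, trend and robust, array weights, replicate block, array column, only the 2 groups, the second column, the ratio to the partner, the authors' deposited values, outlier spots kept, and each array left out. The median difference of 0.107 became 0.0321 with normexp and quantile normalisation, -0.00255 on the ratio to the partner and 0.0469 in the authors' deposited values. It ran from 0.0539 to 0.16 over arrays left out, and was 0.109 with the replicate block, which changed no call. The count above on every array, 23, was 30 without metformin replicate 3 (11.7%, against 12.0% of all tested). It was 34 without high fat diet replicate 2 (13.4%, against 8.14% of all tested), and 15 on the ratio. The count below, 1, was 9 without metformin replicate 3 (3.52%, against 4.47% of all tested). Without high fat diet replicate 2 it was 4 (1.57%, against 6.60% of all tested). It was 2 with normexp, 4 with quantile normalisation, 2 with the array median, 10 on the ratio, 8 in the authors' values and 3 with outlier spots kept. For settings other than arrays left out, no share over all tested is set beside these counts, and nothing is read from them. These counts were chosen after seeing the data.

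Against control, calls appeared in place of 0 under some settings. Metformin had 3 with normexp (0.99%, against 0.0233% of all tested), 1 with quantile normalisation (0.33%, against 0.0116%), 2 with trend and robust (0.66%, against 0.0116%) and 1 with array weights (0.33%, against 0.00388%). High fat diet had 2 with normexp (0.656%, against 0.0737%) and 1 with trend and robust (0.328%, against 0.0272%). Nothing is read from these shares, because the control arrays chose the probes. The metformin median of -0.0474 became 0.0155 with quantile normalisation and 0.0406 with array column. Over arrays left out it ran from -0.0993 (without metformin replicate 3) to -0.00499 (without control replicate 2). Nothing is read from the array column medians of either group, because the controls shared their column only with high fat diet replicate 1. The high fat diet median of -0.148 became -0.00917 with quantile normalisation, -0.0181 on the ratio, -0.0146 in the authors' values and -0.0533 with array column, and ran from -0.189 to -0.117 over arrays left out. Its count below on every array, 64, was 20, 23 and 21 with quantile normalisation, the ratio and the authors' values. No share over all tested is set beside these 3 counts, and nothing is read from them. Of the bright circRNAs, 173 were in a top of the same size of control by the authors' values, 299 with outlier spots kept and 291 to 299 without a control array. The cause was not tested for any of these.

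Signs turned for some named circRNAs. Between metformin and high fat diet, mmu_circ_0015253 was -0.0221 in the authors' values and mmu_circ_0008939 -0.0457 on the ratio. For high fat diet minus control, chr17:57352036-57352184 ran from -0.102 to 0.454 over arrays left out, mmu_circ_0015495 was 0.121 on the ratio and 0.0267 in the authors' values, and mmu_circ_0014064 was -0.0278 in the authors' values, -0.0162 with outlier spots kept, -0.0445 with array weights, -0.44 with the replicate block, -0.0698 with array column and -0.292 to 0.403 over arrays left out. For metformin minus control, mmu_circ_0015253 was -0.248 and mmu_circ_0013071 -0.0501 on the ratio, mmu_circ_0005430 -0.0996 in the authors' values, and mmu_circ_0014064 -0.147 in the authors' values, -0.0695 with outlier spots kept and -0.543 with the replicate block.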
